A study of Mus musculus with 12 samples.

Results

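Kinesins are motor proteins that use ATP to move along microtubules or to take microtubule ends apart. In dividing cells one set of them builds the spindle, moves chromosomes and closes the midbody, and its genes are switched on late in the cell cycle. In neurons another set carries vesicles, mitochondria, endosomes and receptors along axons and dendrites, and several of its genes have one paralog used by most cell types and others made mainly by neurons.

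The kinesin genes were taken as all symbols in the 12 count files of the form Kif, a number, and at most a letter and a further digit, with at least 1 count in any library. This gave 38 of 22609 genes. They were set in a group of 12 mitotic motors, a group of 15 transport motors and 11 other members. RNAseq libraries came from adherent neural stem (ANS) cells, a stem cell culture of mouse brain that can be driven to GABAergic, that is inhibitory, neurons, and all of them are labelled with the embryo age E14.5. The 3 libraries of T0 were from cells proliferating in growth medium with FGF2 at 20 ng/ml and EGF at 20 ng/ml. The 3 libraries of T1 were from cells 2 days after the change to medium D1, which held FGF at 10 ng/ml and EGF at 2 ng/ml. The 4 libraries of T2 were taken 2 days after the change to medium B, with FGF-2 at 10 ng/ml and BDNF at 20 ng/ml, and the 2 libraries of T3 were taken 10 days after that change. No group carries a genetic change, no library is from the brain itself, and the libraries are described as biological replicates and as independent, with nothing said of separate cultures, so p-values measure the spread between these libraries. T1, T2 and T3 are each compared with the same 3 T0 libraries, so these comparisons are not independent.

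Between 8910724 and 16631614 reads per library fell on genes. Levels are in CPM, counts scaled to the library size and by the trimmed mean of M-values. T0 replicate 3 stood apart from the other 2 T0 libraries, with a chi-square per gene of 101 and 105 against 3.28 between replicates 1 and 2, and the 2 T3 libraries differed by 34.1. The progenitor genes Nes and Sox2 were present in every library. The labels call the T3 cells GAD+: Gad1 was at 4.05, 2.79 and 1.20 CPM at T0 and 48.7 and 23.9 CPM at T3, while Gad2, Slc32a1 and Stmn2, which mark inhibitory or maturing neurons, had at most 1 count in any library. Summed markers reached no more than 1.62 CPM for microglia, endothelium or fibroblasts.

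The first question was how the motors of division behaved after the change from growth medium. Of the 12 mitotic motors, 11 had enough counts for the test, and all 11 fell at T1 and all 11 fell at T2 compared with T0. Over all genes tested, 16.8% were called lower at T1 and 21.8% at T2. The median log2 fold change of the 11 was -3.47 at T1 and -2.96 at T2, beside -0.0082 and 0.00229 over all genes. The fall at T1 ranged from 6.91-fold for Kif20b to 16.9-fold for Kif2c, and at T2 from 5.21-fold for Kif18b to 11.6-fold for Kif2c. The list of 12 leaves out Kif2a, the close relative of Kif2c, which was set among the other members. Kif2a was not called at T1 (log2 fold change -0.23, adjusted p = 0.3635) or at T2 (-0.17, adjusted p = 0.3847). Calls are from the quasi-likelihood test of edgeR with Benjamini-Hochberg adjustment over all genes and a threshold of 0.05, and all 11 calls held at both times with any 1 library left out. Without T0 replicate 3 the log2 fold change at T1 was -3.86 for Kif2c and -2.56 for Kif20b, beside -4.08 and -2.79 with it. In such bulk libraries, fewer dividing cells and less RNA per dividing cell cannot be told apart.

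One subgroup pushes the spindle poles apart. Kif11, the tetrameric motor that slides antiparallel microtubules, lies at chr19:37450893-37496349 (mm9, bounds of the gene record) and was at 148, 158 and 229.9 CPM at T0, 21.7, 15.8 and 11.2 CPM at T1, 29.1, 28.8, 12.9 and 19.5 CPM at T2, and 47.5 and 92.5 CPM at T3 (log2 fold change -3.47, SE 0.30, adjusted p = 0.000542 at T1). Kif15, which helps to keep the spindle bipolar, was at 99.3, 103 and 133 CPM at T0, 11.1, 11.1 and 6.89 CPM at T1, 14.7, 18.1, 7.92 and 10.0 CPM at T2, and 24.0 and 44.3 CPM at T3 (log2 fold change -3.54, SE 0.24, adjusted p = 0.000398 at T1). For both genes each T0 library was above every later library.

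Another subgroup shortens microtubules or drives chromosomes. Kif2c, a depolymerase of centromeric microtubules that does not walk, lies at chr4:116832244-116855244 on mm9 and was at 89.7, 94.3 and 143 CPM at T0, 9.39, 6.13 and 4.02 CPM at T1, 14.1, 8.98, 6.19 and 7.99 CPM at T2, and 19.0 and 43.0 CPM at T3 (log2 fold change -4.08, SE 0.35, adjusted p = 0.000568 at T1). Kif18a, which damps the swings of chromosomes at the metaphase plate, was at 50.6, 57.7 and 95.8 CPM at T0, 10.3, 8.89 and 8.60 CPM at T1, 14.4, 15.2, 8.65 and 8.72 CPM at T2, and 14.2 and 28.0 CPM at T3 (log2 fold change -2.89, SE 0.27, adjusted p = 0.000710 at T1). Kif18b, which limits the length of astral microtubules, was at 86.8, 84.6 and 129.8 CPM at T0, 16.3, 13.3 and 6.71 CPM at T1, 22.7, 20.5, 18.6 and 14.8 CPM at T2, and 43.7 and 60.0 CPM at T3 (log2 fold change -3.07, SE 0.35, adjusted p = 0.00140 at T1). Kif18b had the smallest fall of the 11 at T2 and at T3. The chromokinesin Kif22, which pushes chromosome arms away from the poles, was at 102, 97.5 and 168 CPM at T0, 15.1, 10.7 and 8.29 CPM at T1, 23.4, 18.4, 12.3 and 15.9 CPM at T2, and 27.6 and 68.6 CPM at T3 (log2 fold change -3.44, SE 0.31, adjusted p = 0.000670 at T1). Kif4, a chromokinesin that also works with Prc1 in the midzone, was at 83.4, 84.9 and 126 CPM at T0, 11.6, 7.85 and 4.51 CPM at T1, 14.52, 14.9, 7.64 and 9.89 CPM at T2, and 25.0 and 50.05 CPM at T3 (log2 fold change -3.64, SE 0.36, adjusted p = 0.000891 at T1). In all of these the T1 and T2 ranges overlapped and neither reached the T0 range.

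The last subgroup acts in the midzone and midbody. Kif23, the motor of the centralspindlin complex, was at 93.8, 86.2 and 182 CPM at T0, 12.3, 8.59 and 5.49 CPM at T1, 17.1, 16.1, 8.46 and 9.65 CPM at T2, and 22.5 and 52.0 CPM at T3 (log2 fold change -3.80, SE 0.42, adjusted p = 0.00118 at T1). Kif20a, which brings the chromosomal passenger complex to the midzone, was at 141, 139 and 218 CPM at T0, 19.7, 14.4 and 9.15 CPM at T1, 27.1, 22.9, 16.3 and 18.0 CPM at T2, and 31.7 and 78.8 CPM at T3 (log2 fold change -3.54, SE 0.33, adjusted p = 0.000691 at T1). In both, the T3 libraries lay above all T1 and T2 libraries and below all T0 libraries. Kif20b, needed for late cytokinesis, was at 76.8, 69.1 and 111 CPM at T0, 13.2, 13.2 and 10.9 CPM at T1, 18.5, 18.2, 9.92 and 13.2 CPM at T2, and 22.4 and 41.8 CPM at T3 (log2 fold change -2.79, SE 0.22, adjusted p = 0.000507 at T1). Kif14, which recruits citron kinase to the midbody, was at 46.1, 46.1 and 52.3 CPM at T0, 6.38, 4.86 and 2.56 CPM at T1, 10.0, 8.33, 4.64 and 4.79 CPM at T2, and 13.3 and 26.1 CPM at T3 (log2 fold change -3.41, SE 0.31, adjusted p = 0.000683 at T1). Kif20a and Kif23 were highest in T0 replicate 3, and so were the other 9 tested mitotic motors. The remaining list member, the depolymerase Kif2b, had 1 count in T2 replicate 4 and 0 in the other 11 libraries and was not tested.

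**Figure D1:**
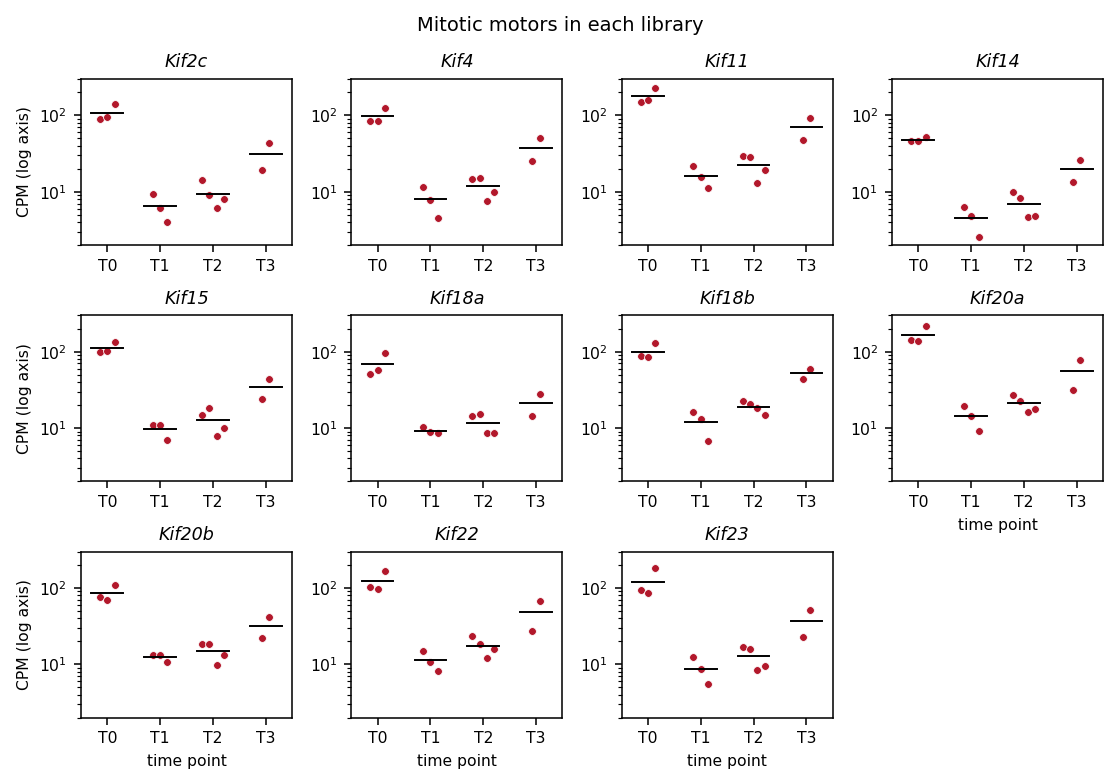
CPM on a log axis (vertical) at each time point (horizontal) for the 11 tested mitotic motors, 1 point per library, with the mean as a black bar. In each panel the T1 and T2 points lie below the T0 points, and the 2 T3 points lie between, except that 1 T3 point of Kif18a lies within its T2 range, with Kif11 at 47.5 and 92.5 CPM.

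At T3 the mitotic motors stood between the early and the proliferating levels. All 11 were below the T0 range in both T3 libraries, where 25.8% of all genes tested had T3 entirely below T0, but 1 of the 11 passed the test, beside 1.41% of all genes called lower. This was Kif15 (log2 fold change -1.70, SE 0.31, adjusted p = 0.0441). The other 10 had adjusted p from 0.0660 for Kif2c to 0.136 for Kif22. Unadjusted p was under 0.05 in 11 of 11, beside 3350 of 12721 genes in either direction. The median log2 fold change of the 11 was -1.40 beside -0.0149 over all genes. DESeq2 called 11 of 11 lower, beside 939 of 13658 genes. The Kif15 call was lost without T0 replicate 1 (adjusted p = 0.105), T0 replicate 2 (0.123), T3 replicate 1 (0.228) or T3 replicate 4 (0.0723), and without T0 replicate 3 the count was 4 (Kif2c, Kif15, Kif18a and Kif18b).

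Between neighbouring times edgeR made few calls among the mitotic motors. From T1 to T2, 0 of the 11 were called by edgeR and 0 by DESeq2. Unadjusted p was under 0.05 in 3, beside 1444 of 12382 genes in either direction. All 11 were fitted higher at T2, with overlapping groups. Their median log2 fold change was 0.562 beside -0.00386 over all genes. Over all genes 0.573% were called higher and 0.0565% lower. The replicate numbers were taken to pair the libraries here, from correlations in these same data. With the replicate number as a block 2 were higher at T2, Kif22 (log2 fold change 0.68, adjusted p = 0.0400) and Kif20a (0.66, adjusted p = 0.0422). That blocked fit called 162 of 12264 genes higher. From T2 to T3, 1 of the 11 was called higher, beside 0.5% of all genes called higher and 0.691% called lower. This was Kif18b (log2 fold change 1.44, SE 0.19, adjusted p = 0.0292). In 10 of the 11, all but Kif18a, both T3 libraries were above every T2 library, as were 13.6% of all genes tested, and the median log2 fold change was 1.45 beside 0.00659. The other 10 had adjusted p from 0.0515 for Kif4 to 0.236 for Kif18a, while DESeq2 called 10 higher, beside 430 of 13088 genes. The Kif18b call was lost without any 1 T2 library (adjusted p = 0.0586 without T2 replicate 1, 0.0657 without replicate 2, 0.0849 without replicate 3 and 0.0842 without replicate 4). Leaving out either T3 library leaves 1, so the spread within T3 cannot be measured there.

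Proliferation markers moved in the same libraries. The summed CPM of Mki67, Pcna, Top2a, Ccnb1 and Cdk1 was 1272, 1361 and 1969 in the T0 libraries, 201, 135 and 93.0 in the T1 libraries, 243, 246, 122 and 155 in the T2 libraries, and 404 and 697 in the T3 libraries. All 5 of these genes were called lower at T1 and at T2 and 1 of the 5 at T3, beside 16.8%, 21.8% and 1.41% of all genes. At T3, 4 of the 5 had an unadjusted p under 0.05. From T2 to T3 all 5 were fitted higher and 0 were called. The part of these genes in the level of the mitotic motors was not tested. Spindle proteins that work with these motors formed a list of 9. Of these, 9 were called lower at T1 and at T2 and 0 at T3, beside 16.8%, 21.8% and 1.41% of all genes. At T3, 8 of the 9 had an unadjusted p under 0.05, beside 3350 of 12721 genes in either direction. The largest change at T1 was that of Aurkb, the kinase of the chromosomal passenger complex (log2 fold change -3.91, SE 0.42, adjusted p = 0.00110). The partner of Kif23 in centralspindlin, Racgap1, was at 222, 215 and 433 CPM at T0 and 34.2, 20.6 and 15.9 CPM at T1 (log2 fold change -3.63, SE 0.41, adjusted p = 0.00126). Of the kinesins whose symbols lie outside the pattern, the mitotic Cenpe (log2 fold change -3.72, SE 0.27, adjusted p = 0.000488) and Kifc1 (log2 fold change -3.23, SE 0.31, adjusted p = 0.000715) also fell at T1.

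The promoters of mitotic genes were looked at because these motors moved together. Many genes of the late cell cycle carry a CHR element, read by the MuvB complexes, near the start of transcription, and a CCAAT box, bound by NF-Y, upstream of it. RefSeq windows on GRCm38.p6, 250 bases before to 50 bases after a start, were found for 31 of the 38 members, and for 11 of the 12 mitotic motors. The CHR was searched as the letters TTTGAA and in its other form as the letters TTCGAA, which read the same on both strands, and the CCAAT box as the letters CCAAT, all on both strands. CHR letters were in 9 of the 11 mitotic motors, 1 of the 11 transport motors and 3 of the 9 other members with a window, and in 19.2% of the 32851 windows of all genes. CCAAT letters were in 7, 3 and 4 of them and in 37.4% of all windows, and both were in 6, 0 and 3 of them and in 7.52% of all windows. Shown are the last 80 bases before the start, 5′ to 3′ on the gene's strand, of the members called in any comparison whose CHR letters lie inside this stretch, and of Kif5c, which has neither motif, for contrast. Capitals mark the CHR letters, which read TTCAAA where the first form lies on the other strand, and the CCAAT box, which reads ATTGG there.
Kif11 (chr19:37376302-37376381, plus strand): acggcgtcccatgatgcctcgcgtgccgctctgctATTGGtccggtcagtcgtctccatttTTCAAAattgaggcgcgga
Kif22 (chr7:127042421-127042500, minus strand): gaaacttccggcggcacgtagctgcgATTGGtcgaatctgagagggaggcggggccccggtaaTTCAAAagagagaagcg
Kif15 (chr9:122951001-122951080, plus strand): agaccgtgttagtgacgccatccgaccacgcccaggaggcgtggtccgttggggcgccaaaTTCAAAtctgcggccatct
Kif24 (chr4:41464849-41464928, minus strand): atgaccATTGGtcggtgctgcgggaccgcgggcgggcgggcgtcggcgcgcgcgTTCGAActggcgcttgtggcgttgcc
Kif26b (chr1:178529045-178529124, plus strand): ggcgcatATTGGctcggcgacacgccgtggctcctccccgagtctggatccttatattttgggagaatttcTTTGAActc
Kif1a (chr1:93082481-93082560, minus strand): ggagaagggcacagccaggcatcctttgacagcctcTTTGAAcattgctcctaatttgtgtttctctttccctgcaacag
Kif5c (chr2:49619206-49619285, plus strand): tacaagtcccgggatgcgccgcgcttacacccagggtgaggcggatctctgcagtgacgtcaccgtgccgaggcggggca
In Kif11 the CCAAT letters began at base -45 and the CHR letters at base -19 from the start, and in Kif22 at -54 and -17. Kif26b, which rose, held the same pair of motifs at -73 and -9. The Kif1a window shown is 1 of 2 of that gene and held the only CHR letters found among the transport motors. The other window, at chr1:93101825-93102124, lies upstream of it on the minus strand and held neither motif. Kif18a fell with the other mitotic motors and its window held neither motif. A match of letters is not evidence of binding.

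The second question was whether transport motors rose while division motors fell. Of the 15 transport motors, 14 were tested. At T1, 5 rose (Kif1a, Kif1c, Kif3a, Kif5c and Kif21b) and 1 fell (Kif5b), beside 15.1% of all genes called higher and 16.8% called lower. At T2, 7 rose (the same 5, Kif5a and Kif13a) and 3 fell (Kif5b, Kif3c and Kif16b), beside 21.4% of all genes called higher and 21.8% called lower, so the count of falls was near that of all genes. By limma on the authors' FPKM values the calls of Kif1c, Kif3a, Kif5b and Kif5c at T1 and of Kif3a, Kif5c, Kif13a and Kif16b at T2 were lost. The median log2 fold change of the 14 was 0.462 at T1 and 0.437 at T2, so the transport motors moved less far than the mitotic motors and in both directions.

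**Figure D2:**
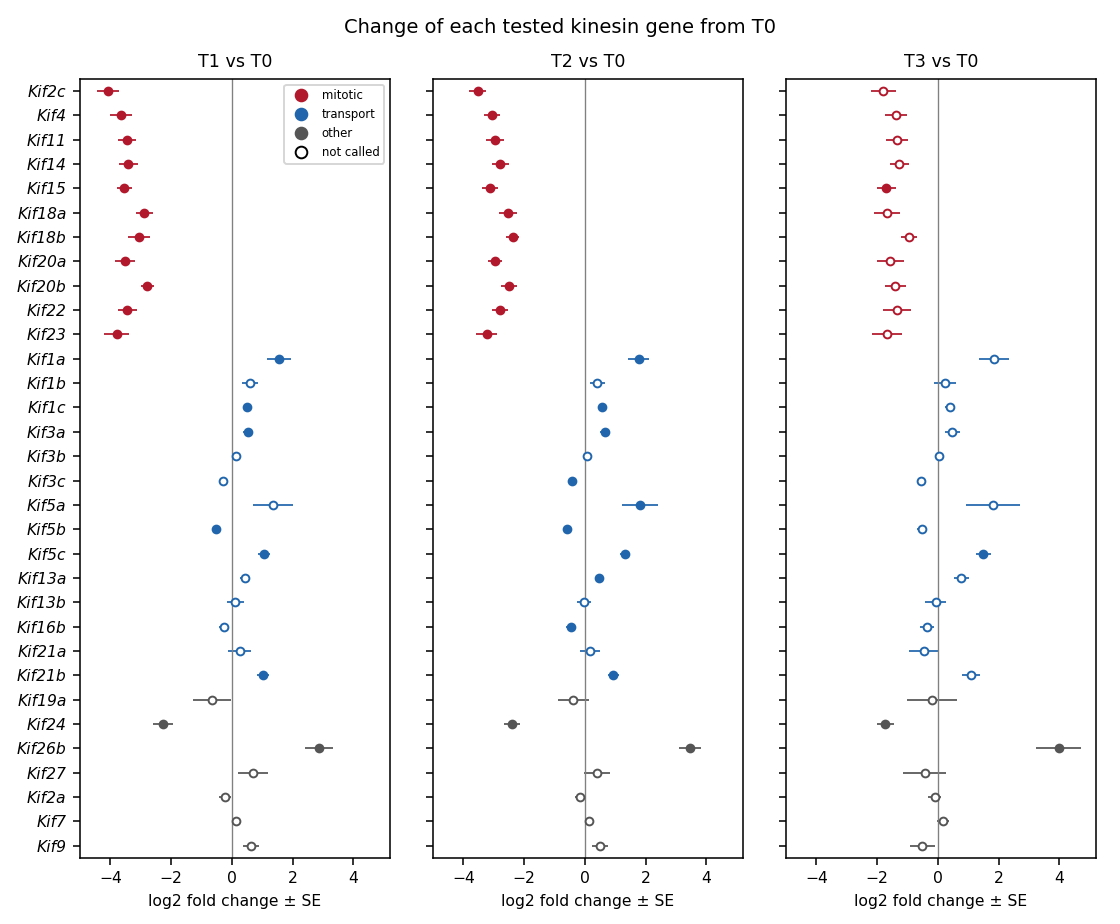
Log2 fold change from T0 (horizontal, bars ± SE) of the 32 tested kinesin genes (vertical) at T1, T2 and T3, filled where the edgeR adjusted p was under 0.05. All 11 mitotic motors lie left of 0 in each panel, and the transport motors lie on both sides, from -0.59 for Kif5b to 1.82 for Kif5a at T2.

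The heavy chains of kinesin-1, which pair with light chains to carry vesicles and mitochondria, split by paralog. Kif5a, a heavy chain made mainly by neurons, lies at chr10:126662755-126700136 on mm9 and was at 35.9, 36.0 and 3.88 CPM at T0, 63.1, 68.4 and 61.3 CPM at T1, 86.2, 90.4, 101 and 75.0 CPM at T2, and 128 and 47.4 CPM at T3. T0 replicate 3 lay far below the other 2 T0 libraries, and all later libraries lay above all 3. Kif5a was not called at T1 (log2 fold change 1.35, SE 0.67, adjusted p = 0.162) but without T0 replicate 3 it was (0.84, adjusted p = 0.000109). At T2 it rose (log2 fold change 1.82, SE 0.59, adjusted p = 0.0361), a call that was lost without any 1 T2 library (adjusted p = 0.0720 without replicate 1, 0.0778 without 2, 0.0801 without 3 and 0.0662 without 4). From T1 to T2, Kif5a was called higher with the replicate block (0.54, adjusted p = 0.0294) and not without it (adjusted p = 0.0891).

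Kif5c, the other heavy chain enriched in neurons, was at 16.1, 14.1 and 12.6 CPM at T0, 32.3, 33.6 and 22.6 CPM at T1, 38.3, 39.7, 31.1 and 31.2 CPM at T2, and 48.3 and 31.5 CPM at T3. Every later library was above every T0 library. It rose at T1 (log2 fold change 1.04, SE 0.20, adjusted p = 0.00894), at T2 (log2 fold change 1.32, SE 0.16, adjusted p = 0.000381) and at T3 (log2 fold change 1.50, SE 0.25, adjusted p = 0.0351). By limma on log2(FPKM + 1) it was not called (adjusted p = 0.235 for T1, 0.277 for T2, 0.297 for T3), and in FPKM T0 replicate 1, at 5.68, lay above T1 replicate 1, T2 replicates 3 and 4 and T3 replicate 4. It was the 1 of the 14 transport motors called at T3, where 3.31% of all genes were called higher, and that call was lost without T0 replicate 1 (adjusted p = 0.107), T0 replicate 2 (0.128), T3 replicate 1 (0.240) or T3 replicate 4 (0.0723). Kif5b, the heavy chain of most cell types, was at 395, 448 and 497 CPM at T0, 308, 339 and 295 CPM at T1, 304, 322, 258 and 291 CPM at T2, and 324 and 294 CPM at T3. It fell at T1 (log2 fold change -0.51, SE 0.13, adjusted p = 0.0262) and at T2 (log2 fold change -0.59, SE 0.12, adjusted p = 0.00596), with all later libraries below all T0 libraries. The T1 call was lost without T0 replicate 2 (adjusted p = 0.0673) or T1 replicate 1 (0.109), 2 (0.0679) or 3 (0.0865).

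The kinesin-3 motors carry vesicles and endosomes as fast single motors. Kif1a, which moves synaptic vesicle precursors down axons, lies at chr1:94912033-94998442 on mm9 and was at 153, 148 and 52.8 CPM at T0, 346, 406 and 289 CPM at T1, 382, 453, 341 and 411 CPM at T2, and 529 and 308 CPM at T3. T0 replicate 3 was again the lowest, and every later library was above every T0 library. Kif1a rose 2.94-fold at T1 (log2 fold change 1.55, SE 0.39, adjusted p = 0.0233) and 3.41-fold at T2 (log2 fold change 1.77, SE 0.34, adjusted p = 0.00387), and at T3 it was not called (log2 fold change 1.84, SE 0.49, adjusted p = 0.0864). The T1 call was lost without T1 replicate 1 (adjusted p = 0.0747), 2 (0.0884) or 3 (0.0576), and without T0 replicate 3 the change was 1.20 (adjusted p = 0.000138). Kif1c, linked to dense core vesicles and integrins, was at 181, 195 and 166 CPM at T0, 264, 268 and 237 CPM at T1, 258, 256, 259 and 285 CPM at T2, and 251 and 222 CPM at T3. It rose at T1 (log2 fold change 0.50, SE 0.12, adjusted p = 0.0182) and T2 (log2 fold change 0.57, SE 0.10, adjusted p = 0.00282), the first lost without T0 replicate 1 (adjusted p = 0.0549), T1 replicate 1 (0.0843) or T1 replicate 2 (0.0763). Kif1b, whose isoforms carry mitochondria and vesicle precursors, was at 692, 714 and 338 CPM at T0, 869.8, 952 and 820 CPM at T1, 728, 894, 662 and 766 CPM at T2, and 784 and 566 CPM at T3. It was called at no time (adjusted p = 0.141 at T1), but it was called at T1 without T0 replicate 3 (0.32, adjusted p = 0.0208).

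Kif13a, an endosome motor, was at 122, 125 and 110 CPM at T0, 163, 188 and 129 CPM at T1, 168, 184, 159 and 138 CPM at T2, and 251 and 151 CPM at T3. It rose at T2 (log2 fold change 0.47, SE 0.12, adjusted p = 0.0150), a call lost without T2 replicate 1 (adjusted p = 0.0528). Its paralog Kif13b was at 19.6, 17.5 and 12.3 CPM at T0, 19.6, 21.8 and 12.3 CPM at T1, 17.8, 20.9, 11.7 and 13.5 CPM at T2, and 19.9 and 11.2 CPM at T3, with overlapping groups and no call. Kif16b, which positions early endosomes, was at 30.2, 29.1 and 21.1 CPM at T0, 23.4, 22.9 and 20.6 CPM at T1, 19.0, 18.4, 17.7 and 21.4 CPM at T2, and 21.8 and 19.4 CPM at T3. It was called lower at T2 (log2 fold change -0.47, SE 0.16, adjusted p = 0.0402) though T0 replicate 3 lay within the T2 range, and without that library the change was -0.61. The Kif16b call was lost without T0 replicate 1 (adjusted p = 0.131), T0 replicate 2 (0.116) or T2 replicate 1 (0.0827), 2 (0.0889), 3 (0.0995) or 4 (0.0515).

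Kinesin-2 is a heterotrimer of Kif3a with Kif3b or Kif3c and the adaptor Kifap3, and it serves cilia as well as axons. Kif3a was at 236, 239.5 and 171 CPM at T0, 325, 321 and 285 CPM at T1, 364, 352, 319.6 and 308 CPM at T2, and 357 and 238 CPM at T3. It rose at T1 (log2 fold change 0.52, SE 0.16, adjusted p = 0.0432) and T2 (log2 fold change 0.66, SE 0.14, adjusted p = 0.00736). The T1 call of Kif3a was lost without T0 replicate 1 (adjusted p = 0.0636), T0 replicate 2 (0.0601) or T1 replicate 1 (0.146), 2 (0.134) or 3 (0.0767). Kif3b was at 77.7, 86.9 and 86.4 CPM at T0, 95.5, 92.4 and 87.5 CPM at T1, 92.9, 85.6, 80.3 and 91.9 CPM at T2, and 90.0 and 80.4 CPM at T3 and was not called. Kif3c went the other way from Kif3a, at 128, 124 and 118 CPM at T0, 106, 107 and 93.0 CPM at T1, 94.8, 96.9, 86.6 and 88.7 CPM at T2, and 92.0 and 75.3 CPM at T3, and fell at T2 (log2 fold change -0.41, SE 0.093, adjusted p = 0.00854). The homodimeric relative Kif17, known from dendrites, had 1 to 5 counts per library and was not tested.

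The relatives Kif21a and Kif21b act at growing microtubule ends. Kif21b was at 128, 129 and 83.1 CPM at T0, 230, 260 and 199 CPM at T1, 212, 261, 201 and 187 CPM at T2, and 299 and 179 CPM at T3. It rose at T1 (log2 fold change 1.01, SE 0.20, adjusted p = 0.0103) and T2 (log2 fold change 0.94, SE 0.19, adjusted p = 0.00464), the first lost without T1 replicate 2 (adjusted p = 0.0506). Kif21a was at 276, 282 and 93.8 CPM at T0, 273, 277 and 228 CPM at T1, 254, 277, 224 and 204 CPM at T2, and 187 and 125 CPM at T3 and was not called in any comparison. In Kif21a the spread within T0 was as wide as the distance to any later group.

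**Figure D3:**
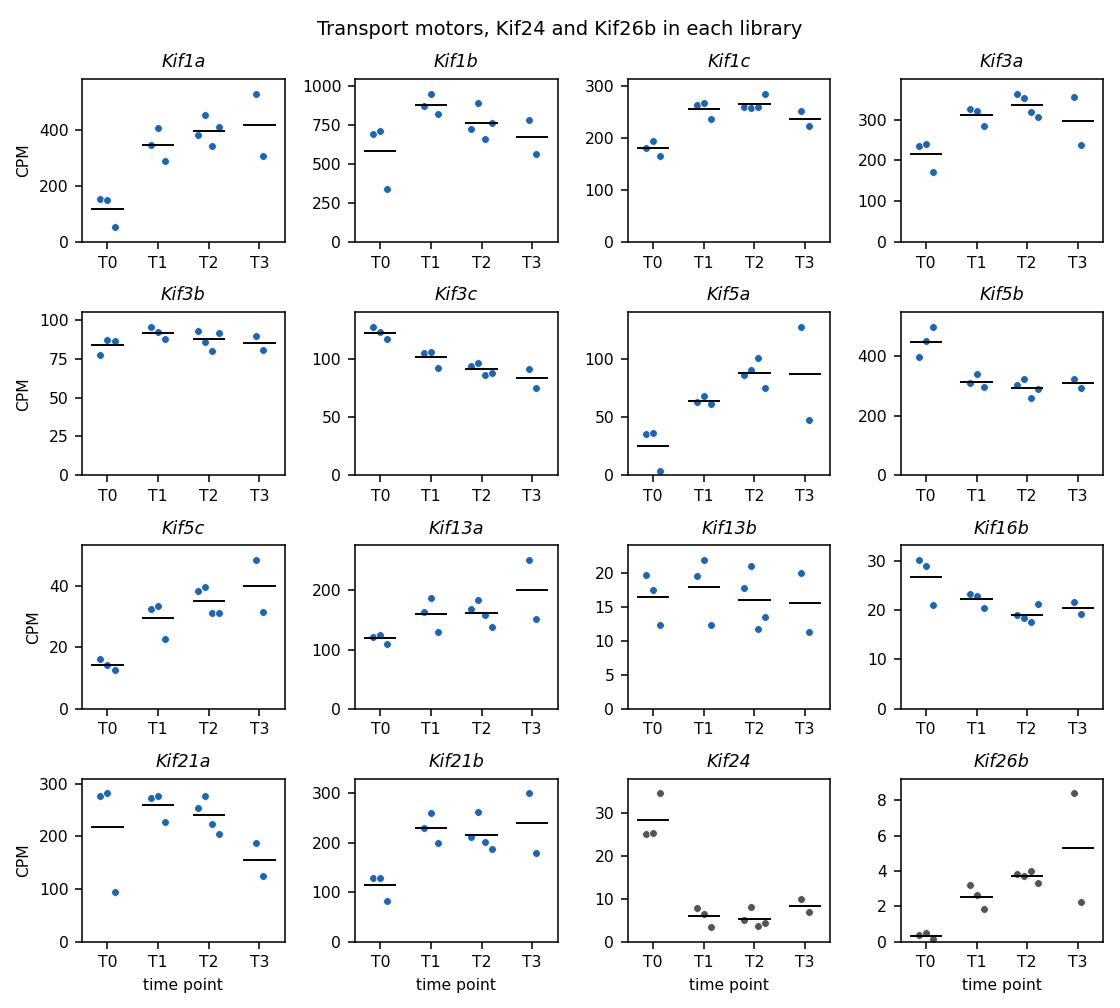
CPM (vertical, each panel from 0) at each time point (horizontal) for the 14 tested transport motors, Kif24 and Kif26b, 1 point per library, with the mean as a black bar. Kif1a and Kif5c lie above T0 in all later libraries, Kif5b below it, and T0 replicate 3 is lowest of its group in Kif5a, at 3.88 CPM.

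At the later steps fewer calls were made among the transport motors. From T1 to T2, 0 of 14 were called by edgeR. Unadjusted p was under 0.05 in 1, beside 1444 of 12382 genes. DESeq2 called 1 higher, Kif5a, beside 234 of 13406 genes. From T2 to T3, 0 of 14 were called by edgeR. Unadjusted p was under 0.05 in 1, beside 2144 of 12599 genes. DESeq2 called 1 lower, Kif21a, beside 330 of 13088 genes. Without T3 replicate 1, which leaves 1 T3 library, the log2 fold change from T2 to T3 was -0.94 for Kif21a and -0.89 for Kif5a. Markers of neurons also differed between the groups. Their summed CPM was 894 to 966 at T0, 2060 to 2610 in T1 libraries, 2032 to 2590 in T2 libraries and 1697 to 2726 in T3 libraries, with T3 replicate 4 below T3 replicate 1 as in all 14 tested transport motors, while all 11 tested mitotic motors were higher in replicate 4. Mtap2 made up most of the neuron sum, at a mean of 900 CPM at T0 and 1903 CPM at T1. Summed markers of the oligodendrocyte lineage also differed between the groups. They were at 3184 to 3621 CPM at T0 and 3972 to 4241 CPM at T1. At T2 they were at 3963 to 4537 CPM and at T3 at 5011 to 5961 CPM. Olig1 and Olig2 made up most of this sum, at means of 2255 and 1108 CPM at T0 and 3801 and 1515 CPM at T3. Calls of higher levels were made for 1 of 6 tested genes at T1, for 2 of 6 at T2 and for 0 of 7 at T3. Over all genes 15.1%, 21.4% and 3.31% were called higher. Of the 7 genes at T3, 5 were fitted above T0 and 2 below. Mean Sox10 was 2.24 CPM at T0 and 0.221 CPM at T3. Summed astrocyte markers were at 2734 to 4174 CPM in T0, 2889 to 3682 CPM in T1, 2387 to 3520 CPM in T2 and 2148 to 2204 CPM in T3 libraries. Of 6 genes, 0, 1 and 0 were called lower, beside 16.8%, 21.8% and 1.41% of all genes. At T3, 5 of the 6 were fitted below T0 and 1 above, S100b (means of 53.4 CPM at T0 and 110 CPM at T3). The part of any of these cells in the transport levels was not tested.

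Set side by side, the mitotic motors added up to 1017, 1020 and 1588 CPM in T0, 147, 115 and 78.4 in the T1 libraries, 206, 190.3, 114 and 133 in the T2 libraries, and 291 and 585 in the T3 libraries. The transport motors added up to 2490, 2589 and 1766 CPM in T0, 3117, 3357 and 2779 in the T1 libraries, 3019, 3351, 2752 and 2911 in the T2 libraries, and 3382 and 2348 in the T3 libraries. The ratio of mitotic to transport CPM was 0.409, 0.394 and 0.899 in the T0 libraries, 0.0471, 0.0342 and 0.0282 in the T1 libraries, 0.0682, 0.0568, 0.0412 and 0.0455 in the T2 libraries, and 0.0860 and 0.249 in the T3 libraries. The T0 and T3 ratios did not overlap with those of T1 and T2, and the 2 T3 libraries differed most from each other within a later group. T0 replicate 3 had the most mitotic and the least transport CPM of all 12 libraries. The total of all 38 kinesin genes ranged from 3010 to 3856 CPM over the 12 libraries. These sums are a description, with no test.

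**Figure D4:**
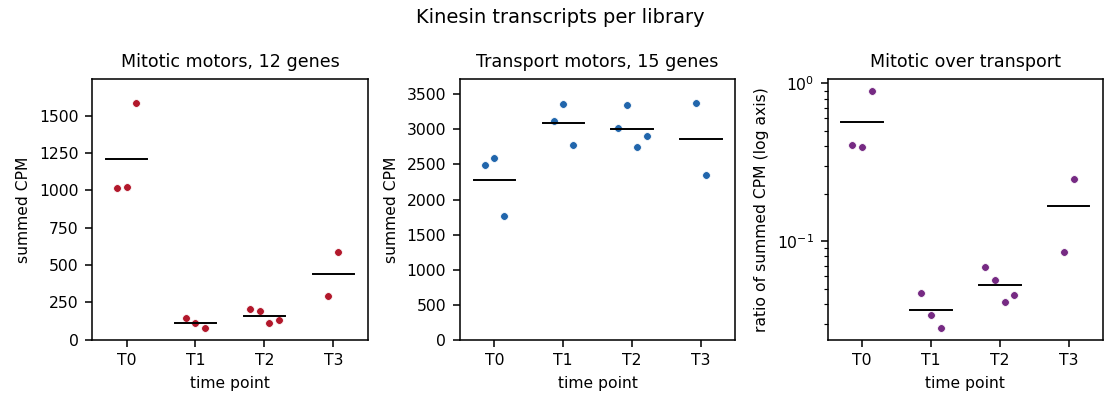
Summed CPM of the 12 mitotic motors (left) and the 15 transport motors (middle), and their ratio on a log axis (right), in each library at each time point, with the group mean as a black bar. The mitotic sum lies at 78.4 to 206 CPM at T1 and T2 and at 291 and 585 CPM at T3, and at 1017 to 1588 CPM at T0.

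Levels of different genes can be compared only per length, and for this the authors' FPKM values (fragments per length of transcript and library size) were used. At T0 the highest mean FPKM of the 38 genes was that of Kif5b, 111 ± 15.3 (SD, n = 3), then Kif1b, 72.5 ± 30.2, Kif3a, 50.04 ± 6.04, and the mitotic Kif22, 46.5 ± 19.0, and Kif20a, 45.6 ± 16.4. The neighbours in this order lay within each other's spread apart from Kif5b, whose lowest T0 library was above the highest of Kif1b. At T1 the order began with Kif1b, 100.4 ± 7.88, Kif5b, 76.9 ± 7.04, and Kif3a, 66.1 ± 5.44, where Kif1b was above Kif5b in every library and Kif5b overlapped with Kif3a. No mitotic motor was among the 12 highest at T1 or T2. At T3 Kif22, 14.96 ± 8.08 (SD, n = 2), and Kif20a, 12.6 ± 7.38, were again among the 12 highest.

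Within paralog groups the shares of FPKM shifted. Kif5b made up 93.9% ± 3.45 (SD, n = 3) of the Kif5 FPKM at T0, 85.0% ± 1.41 at T1, 80.2% ± 2.79 at T2 (n = 4) and 79.7% ± 7.12 at T3 (n = 2). Kif5a went from 2.80% ± 2.07 at T0 to 13.0% ± 2.97 at T2. Kif5c was at 3.27% ± 1.77 of the Kif5 FPKM at T0 and 6.82% ± 1.58 at T2, where its highest T0 share was 5.310% and its lowest T2 share 5.312%. The Kif5b share at T1 and T2 was below that of every T0 library, yet Kif5b stayed the main heavy chain in all libraries. Kif1a made up 9.74% ± 1.35 of the Kif1 FPKM at T0, 18.4% ± 1.05 in T1 libraries, 23.2% ± 0.7997 in T2 libraries and 24.9% ± 1.07 in T3 libraries, with groups T0, T1 and T2 that did not overlap. Kif3c went from 22.7% ± 2.02 of the Kif3 FPKM at T0 to 14.7% ± 1.27 at T2. Close paralogs share sequence, and reads that align to more than one of them were not counted in the count files. These shares are from the authors' FPKM values. How such reads entered those values is not given in the sources used here.

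**Figure D5:**
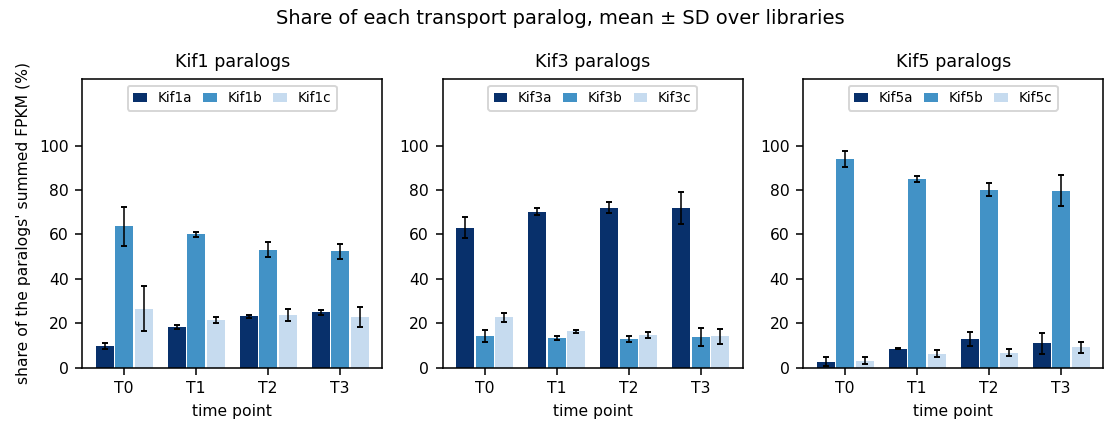
Share of each paralog in the summed FPKM of its group (vertical, %, mean ± SD over libraries) at each time point (horizontal) for Kif1, Kif3 and Kif5. Kif5b falls from 93.9% at T0 to 80.2% at T2 and Kif1a rises from 9.74% to 23.2%.

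Of the 11 other members, 7 were tested and 2 were called against T0, 1 lower (Kif24) and 1 higher (Kif26b). All-gene shares for T1 were 16.8% (down) and 15.1% (up), so for T1 this count is no more than those shares give. For T3 the same 2 genes were called, where the all-gene shares were 1.41% (down) and 3.31% (up). The T3 count is above those shares, but both T3 calls depended on single libraries, as given below. Kif24, a kinesin of the mother centriole that holds back cilia, was at 25.1, 25.3 and 34.5 CPM at T0, 7.84, 6.58 and 3.42 CPM at T1, 5.07, 8.05, 3.64 and 4.49 CPM at T2, and 9.88 and 6.89 CPM at T3. It fell at T1 (log2 fold change -2.27, SE 0.32, adjusted p = 0.00293), T2 (log2 fold change -2.40, SE 0.27, adjusted p = 0.000286) and T3 (log2 fold change -1.73, SE 0.28, adjusted p = 0.0333), and all later libraries were below all T0 libraries. Kif26b, an atypical kinesin without motor activity that acts in Wnt5a and Ror signalling, lies at chr1:180459256-180862986 on mm9 and had 5, 7 and 2 counts at T0. It was at 0.375, 0.488 and 0.141 CPM at T0, 3.19, 2.62 and 1.83 CPM at T1, 3.82, 3.70, 4.00 and 3.32 CPM at T2, and 8.38 and 2.26 CPM at T3. It rose at T1 (log2 fold change 2.88, SE 0.46, adjusted p = 0.00500), T2 (log2 fold change 3.45, SE 0.37, adjusted p = 0.000224) and T3 (log2 fold change 3.97, SE 0.75, adjusted p = 0.0456). The T3 change was 2.74 without T3 replicate 1 and 4.61 without T3 replicate 4, whose levels differ, and the T0 counts were few. Both T3 calls were lost without any 1 library other than T0 replicate 3, with adjusted p of 0.102 to 0.187 for Kif24 and 0.0737 to 0.322 for Kif26b.

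The depolymerase Kif2a, which trims axon branches and is the close relative of Kif2c, was at 83.4, 89.5 and 128 CPM at T0, 77.9, 88.2 and 91.3 CPM at T1, 87.9, 88.6, 90.0 and 85.6 CPM at T2, and 95.6 and 88.6 CPM at T3 and was not called. Kif2c made up 49.4% ± 4.38 (SD, n = 3) of the FPKM of this pair at T0 and 5.52% ± 1.31 at T1. Kif7, a regulator of Hedgehog signalling at the tip of cilia, was at 59.2, 53.5 and 42.5 CPM at T0 and 62.3 and 52.1 CPM at T3 and was not called. Kif9, Kif19a and Kif27, known from motile cilia, stayed at or under 5.23 CPM and were not called either. Kif6, Kif12 and Kif26a had at most 2 counts in any library. Kif4b, a near-identical copy of Kif4, had at most 7 counts, and its reads cannot be told apart with certainty from those of Kif4.

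Partners of the transport motors followed them in part. Of 13 cargo partners (kinesin light chains, JIP scaffolds, mitochondrial adaptors, Kifap3 and Fez1), 12 were tested, 5 rose at T1 and at T2, and 0 fell, beside 15.1% of all genes called higher at T1 and 21.4% at T2, and 16.8% and 21.8% called lower. The largest change was that of the light chain Klc3 at T2 (log2 fold change 2.92, SE 0.35, adjusted p = 0.000382), from 0.675, 0.349 and 0.423 CPM at T0 to 3.06, 2.87, 3.91 and 4.67 CPM at T2. The JIP scaffold Mapk8ip3 (log2 fold change 0.98, SE 0.22, adjusted p = 0.00742), Kifap3 (log2 fold change 0.71, SE 0.098, adjusted p = 0.000817) and the main light chain Klc1 (log2 fold change 0.70, SE 0.12, adjusted p = 0.00241) also rose at T2. At T3, 0 of 12 were called by edgeR, beside 3.31% of all genes called higher. Unadjusted p was under 0.05 in 5, all higher, beside 3350 of 12721 genes in either direction. The minus-end directed Kifc3 rose at T1 (log2 fold change 0.79, SE 0.11, adjusted p = 0.00291) and was still higher at T3 (log2 fold change 1.36, SE 0.15, adjusted p = 0.0185). Of 9 genes of dynein, the motor of the opposite direction, and its regulators, 8 were tested, and 1 fell, Nde1 (log2 fold change -1.07, SE 0.13, adjusted p = 0.00187), and 1 rose, its paralog Ndel1 (log2 fold change 0.51, SE 0.13, adjusted p = 0.0284), at T1 and again at T2, which is no more than the 16.8% of all genes called lower and 15.1% called higher at T1.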

How the data were processed

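PolyA RNA of the 12 samples was made into libraries and sequenced by the authors. Reads were aligned to mm9, and the submitters' processing notes name CASAVA 1.8, TopHat2 2.0.6, Bowtie 0.12.7.0, HTSeq 0.6.0 and DESeq2 1.0.0. The deposited count files hold whole reads per gene, 1 file per library. Reads that aligned in more than 1 place made up 26.0% to 39.0% of all entries of each library. Reads on no gene made up 13.3% to 24.1% of the reads that aligned in 1 place. Neither entered the library sizes or the tests. Whether the counting used strand is not given in the sources used here, so overlapping antisense genes cannot be told apart. The authors' FPKM table was used only to set levels of different genes side by side and for limma.

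Counts were tested with edgeR 4.0.16 (R 4.3.3), by glmQLFit and glmQLFTest after trimmed-mean scaling and filterByExpr, on the 2 groups compared, with Benjamini-Hochberg adjustment over all genes and a threshold of 0.05. SE is the absolute log2 fold change divided by the square root of F. CPM used the same scaling over all 12 libraries. Alternatives were DESeq2 1.42.0, other scaling and filters, 1 fit of all libraries, limma 3.58.1 on log2(FPKM + 1), leaving out each library, libraries numbered 1 and 2 only, and a replicate block. Between T1 and T2 the labels' replicate numbers were taken to pair the libraries, since deviations from the group means of same-numbered libraries correlated at 0.2, 0.34 and 0.16 over genes. The members were all matching symbols, and all tested mitotic and transport motors and all called others are given with their values. Members and lists were chosen with earlier results of these data known. The label of T3 counts 10 days from the change to medium B. Promoter windows were from RefSeq (GRCm38.p6), and gene bounds from GENCODE vM1 on mm9.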

Additional observations from a re-analysis of the deposited data

Results flagged for a closer look

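The CPM of Kif1c at T2 was marked because 1 library lay far from the others: replicate 4 was at 285 CPM and the other 3 at 256 to 259 CPM. Of 32 kinesin genes examined in this way at T2, 1 was marked, and chance marks about 1 in 20. The Kif1c call at T2 held without that library.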

How the results depend on the processing

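The mitotic calls at T1 and T2 (11 of 11 lower) held under every alternative run, and no called value of a single gene changed sign. Over 78 values of single genes and 1065 alternatives, 939 stayed on the same side of the threshold, 66 lost a call and 60 gained one. Of 82 other, uncalled values, 38 changed sign in some alternative. For the other counts the cause of the differences was not tested.

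At T1, transport motors called lower (1) numbered 0 by limma on FPKM, 3 with the libraries numbered 1 and 2 only and 0 to 3 with 1 library left out, and those called higher (5) numbered 2, 8 and 1 to 7. At T2, those called higher (7) numbered 4 by limma. At T3 against T0, mitotic motors called lower (1) numbered 11 by DESeq2, 8 with no filter, 0 with at least 10 counts in every library, 11 in the fit of all 12 libraries, 0 by limma and 0 to 4 with 1 library left out. Transport motors called lower there (0) numbered 2 in the fit of all 12 libraries and 0 to 1 with 1 left out, and those called higher (1) numbered 3 by DESeq2, 2 with no filter, 6 in the fit of all 12, 0 by limma and 0 to 2 with 1 left out. From T1 to T2, transport motors called higher (0) numbered 1 by DESeq2. From T2 to T3, mitotic motors called higher (1) numbered 10 by DESeq2, 10 with no filter, 0 in the fit of all 12 and 0 by limma. Transport motors called lower at T3 against T2 (0) numbered 1 by DESeq2 and 1 with no filter. A fit without a T3 library leaves 1 T3 library, with no spread within T3. Over all genes, calls lower at T3 against T0 numbered 939 of 13658 by DESeq2 and 1865 of 12952 in the 12-library fit. Calls higher from T2 to T3 numbered 430 of 13088 by DESeq2 and 423 of 17964 with no filter. Limma on FPKM shifted the all-gene median log2 fold change to -0.172 at T2 and -0.273 at T3 against T0.

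With the replicate number as a block, 2 mitotic and 1 transport motor were called higher from T1 to T2, beside 162 of 12264 genes. There each of 6 libraries correlated best with its own number. In the comparisons with T0 and from T2 to T3 the libraries were taken to share only a number, since not every correlation was over 0.1 or fewer than 3 numbers were shared (-0.018, 0.12 and 0.065 at T1, -0.064, 0.016 and -0.15 at T2, 0.4 for the 1 shared number at T3 against T0, and -0.015 and 0.26 from T2 to T3). Own numbers correlated best in 4 of 6 libraries at T1 and 1 of 6 at T2. There the replicate block gave 0 transport motors lower at T2, in place of 3 (adjusted p = 0.0588 for Kif3c, 0.0596 for Kif5b and 0.0814 for Kif16b), left Kif5a out of those higher (0.0876), and gave 0 mitotic motors higher at T3 against T2. No block could be fitted at T3 against T0, which share 1 number. A T3 group of 2 unlike libraries limits every T3 call.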
